A study of Mus musculus with 8 samples.

Results

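The muscarinic acetylcholine receptors are encoded by 5 genes, *Chrm1* to *Chrm5*. These genes were followed through single nucleus (sn)RNAseq data from the mouse iris. They were chosen by name, though with earlier results of these data known. The tables list 22873 genes, and 4 of the 5 members are among them; *Chrm5* is not among the genes of the tables and was not analysed here. The data comprise 34357 nuclei in 8 libraries, each made from 5 to 6 pooled irises (iris and ciliary body) of wild type albino female mice aged 6 to 8 weeks. Of these libraries, 3 are from untreated irises (14365 nuclei), 3 from irises constricted with 5% pilocarpine eye drops (8965 nuclei) and 2 from irises dilated with 5% phenylephrine plus 1% cyclopentolate eye drops (11027 nuclei), with treatment for 6.5 h. During treatment the mice given dilating drops stayed in darkness and those given pilocarpine stayed in light, so drug and lighting cannot be told apart, and neither can the effects of the 2 dilating drugs. The authors assigned each nucleus to 1 of 10 cell types: dilator muscle, sphincter 1, sphincter 2, iris pigment epithelium (PE), ciliary body epithelium (CBE), ciliary body (CB), stroma 1, stroma 2, leukocytes and endothelial cells.

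Muscarinic receptors are G protein-coupled receptors for acetylcholine, the transmitter of the parasympathetic nerves. CHRM1, CHRM3 and CHRM5 couple mainly to Gq, which activates phospholipase C and releases calcium from internal stores, and CHRM2 and CHRM4 couple mainly to Gi, which inhibits adenylate cyclase. In the iris, parasympathetic acetylcholine contracts the sphincter muscle and sympathetic noradrenaline, through alpha-1 adrenergic receptors, contracts the dilator muscle. Pilocarpine is a muscarinic agonist, cyclopentolate a muscarinic antagonist and phenylephrine an alpha-1 adrenergic agonist.

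Libraries held 1274 to 7321 nuclei and 5189437 to 25136427 unique molecular identifiers (UMIs, one per captured transcript), with a median of 2775 to 4697.5 UMIs per nucleus. Marker genes for 9 of the cell types were highest in the types they mark, and for iris PE this held for 2 of 3. The cell types were defined from the same counts, so this is no independent check of them. The libraries untreated 1 and dilated 1 shared 63 cell barcodes (4.26% of the nuclei of untreated 1), and in 93.7% of these pairs both nuclei carried the same cell type, against 19.9% over all pairs of nuclei from these libraries. Nuclei with these barcodes had a median of 5479 UMIs in untreated 1 and 960 in dilated 1. Over all nuclei the medians were 3534 UMIs in untreated 1 and 3251 in dilated 1. The cause of the sharing was not tested. The share of UMIs in genes spanning over 100 kb was lowest in constricted 3 and dilated 2 in every cell type, at 31.7% and 29.4% in dilator muscle against 35.3% to 37.5% in the untreated libraries. Both *Chrm2* and *Chrm3* are such long genes, and results on them are given below also without the shared barcodes or with this share in the model where the value or call moved.

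In GENCODE vM21 on mm10, *Chrm2* (ENSMUSG00000045613.9) spans 140.331 kb on the plus strand of chromosome 6 (chr6:36388084-36528414), with its whole coding sequence in a single exon piece. *Chrm3* (ENSMUSG00000046159.16) spans 485.362 kb on the minus strand of chromosome 13 (chr13:9875486-10360847), again with a single coding piece. *Chrm1* (ENSMUSG00000032773.9; chr19:8663789-8683587, plus strand) spans 19.799 kb, *Chrm4* (ENSMUSG00000040495.4; chr2:91927249-91928688, plus strand) spans 1.44 kb and *Chrm5* (ENSMUSG00000074939.3; chr2:112479171-112480769, minus strand) spans 1.599 kb. Coding sequence fills 1437 of the 1440 bases annotated for *Chrm4* and 1596 of the 1599 for *Chrm5*. The RefSeq start of *Chrm4* lies further upstream, next to chr2:91922188. Whether reads outside these short spans were missed in counting was not tested. The promoter of *Chrm2* is shown because *Chrm2* is the only member called changed below outside of alternative settings. It is the 250 bases before the RefSeq start on the plus strand of GRCm38.p6 (chr6:36387834-36388083), and the capitals mark a CCAAT box read on the opposite strand (ATTGG).

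Chrm2 promoter: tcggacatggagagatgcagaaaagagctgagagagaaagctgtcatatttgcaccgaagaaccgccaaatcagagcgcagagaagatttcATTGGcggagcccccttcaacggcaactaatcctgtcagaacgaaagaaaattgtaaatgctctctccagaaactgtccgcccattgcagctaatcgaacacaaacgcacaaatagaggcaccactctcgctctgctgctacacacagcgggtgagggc

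This stretch is 50% G and C and holds 12 CG pairs, against medians of 52.4% and 6 over the 32851 RefSeq promoters of the same length. The CCAAT box lies 159 to 155 bases before the start, and 33.8% of all promoters hold that motif on either strand. None of the other motifs searched on both strands was found in it, namely the cAMP response element TGACGTCA (in 1.55% of promoters), its shorter form TGACG (17.8%, contained in the former), the AP-1 site TGANTCA (6.75%), the E-box CANNTG (66.2%), the GATA site AGATAA (9.99%) and the TATA box TATAAA (12.4%). These counts describe the letters in this window only.

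In untreated irises *Chrm2*, the Gi-coupled receptor, was highest in dilator muscle, and *Chrm3*, the Gq-coupled receptor that mediates smooth muscle contraction, was highest in sphincter 1. Levels are given as CPM, the UMIs of a gene scaled to a fixed total over all UMIs of that cell type in a library (counts per 1000000), with the SD over 3 untreated libraries. In dilator muscle *Chrm2* was at 675, 579 and 635 CPM in untreated libraries 1, 2 and 3. The same libraries gave 333, 274 and 338 CPM for sphincter 1, then 211, 194 and 181 CPM for sphincter 2. The 3 muscle types did not overlap in *Chrm2*: the mean in dilator muscle was 2.00-fold that in sphincter 1, and the mean in sphincter 1 was 1.62-fold that in sphincter 2. Endothelial cells followed at 120 ± 44.9 CPM, below every sphincter 2 library, then leukocytes at 60.5 CPM and CBE at 30.5 CPM. In endothelial cells and leukocytes few nuclei carried most of the signal: over all libraries 88 of the 129 endothelial *Chrm2* UMIs lay in 15 of 273 nuclei (4 called doublets), and 36 of the 52 leukocyte UMIs in 6 nuclei (4 called doublets, all with *Myh11*). Of the 129 endothelial UMIs, 45 came from the untreated libraries and 63 from the single library dilated 1. From endothelial cells downwards, neighbours in this order overlapped between libraries, except that stroma 2 (12.1 CPM) lay above iris PE (8.62 CPM) in every library. The lowest level was in stroma 1, at 7.65 CPM.

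*Chrm3* was at 4086, 3787 and 4001 CPM in sphincter 1, 5.48-fold above endothelial cells (722 ± 181 CPM), with no overlap between libraries. In sphincter 2 it was at 660, 543 and 792 CPM, within the range of endothelial cells, so the order of these 2 types is not set by the data. Leukocytes came next at 66.5 CPM, but 50 of the 56 *Chrm3* UMIs that leukocytes held over all libraries came from 2 nuclei, of which 1 was called a doublet. Iris PE was at 35.5 ± 5.35 CPM and dilator muscle at 22.3 ± 3.83 CPM, with no overlap between them. The remaining types lay between 13 and 20.0 CPM, and each overlapped its neighbours in the order.

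The other members had few UMIs. *Chrm1*, Gq-coupled, had 262 UMIs in the untreated libraries and ranged from 2.83 CPM in stroma 1 to 17.3 ± 5.78 CPM in CBE, and every pair of neighbouring cell types in its order overlapped. *Chrm4*, Gi-coupled, was at 3.91 ± 0.532 CPM in dilator muscle, on 60 UMIs, and the only other type with more than 1 UMI over these libraries was sphincter 2, with 5 UMIs. Over all libraries 89.5% of the *Chrm2* UMIs and 88.7% of the 142 *Chrm4* UMIs lay in dilator muscle nuclei, which also make up the largest cell type (11606 nuclei), and 74.0% of the *Chrm3* UMIs lay in the 1011 sphincter 1 nuclei. *Chrm4* was at 0 in untreated CBE (373 nuclei) and endothelial cells (149 nuclei). A count of 0 allows a share of nuclei with a UMI of up to 0.804% in the former and 2.01% in the latter, by counting error alone.

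**Figure D1:**
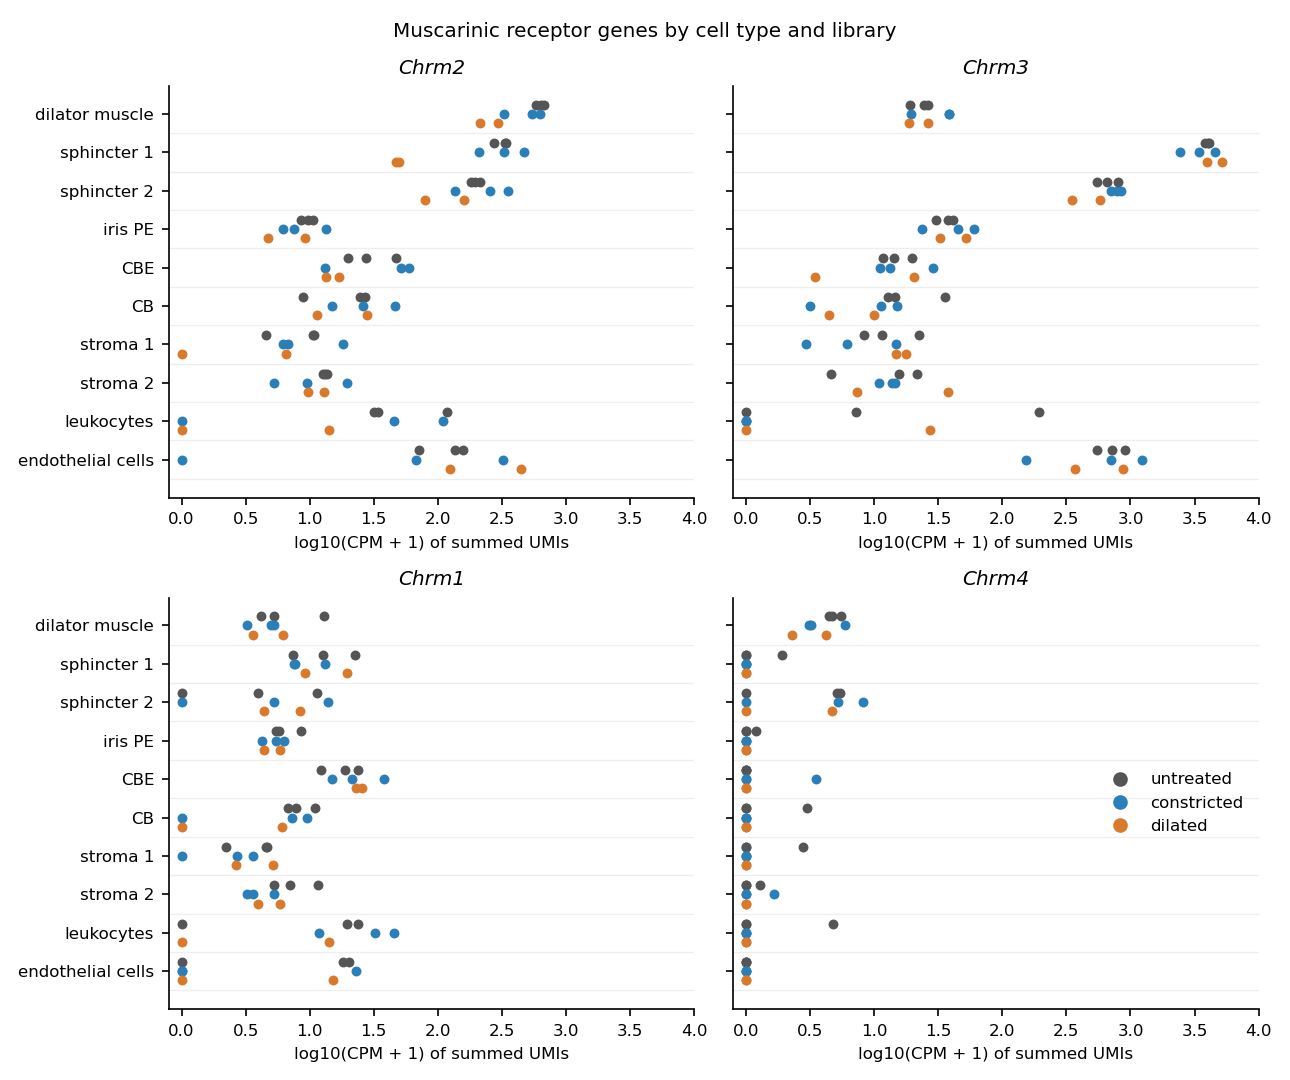
Level of *Chrm1* to *Chrm4* in each of 10 cell types, as log10(CPM + 1) on the horizontal axis, with 1 point per library coloured by condition. *Chrm2* was highest in dilator muscle and *Chrm3* in sphincter 1 in the untreated libraries, whereas the points of *Chrm1* and *Chrm4* stayed low and overlapped between most types.

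Since the genes differ in length and reads from introns are counted in nuclei, levels of different genes were compared per kilobase of gene span, in untreated irises. On this scale *Chrm3* in sphincter 1 stood at 8.15 CPM per kb and *Chrm2* in dilator muscle at 4.49 CPM per kb. Sphincter 1 held *Chrm2* at 2.25 CPM per kb, and in sphincter 2 *Chrm2* (1.39 CPM per kb) and *Chrm3* (1.37 CPM per kb) were nearly level. That order depends on the scale, since per kilobase of exon *Chrm2* stood at 32.2 and *Chrm3* at 106 CPM per kb in sphincter 2. In dilator muscle *Chrm3* came to 0.0460 CPM per kb. *Chrm4* there came to 2.71 CPM per kb on 60 UMIs, because its annotated span is short and nearly all coding. A span from its RefSeq start would be longer and this value lower.

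Counting nuclei gave the same layout. To remove differences in depth, each nucleus was thinned to 1000 UMIs, and the share before thinning follows in parentheses. A *Chrm3* UMI was found in 95% (99.1%) of untreated sphincter 1 nuclei, whereas the share for sphincter 2 was 38.2% (63.1%). The background for *Chrm3*, taken from stroma 1, was 1.09% (3.02%), and dilator muscle stood at 2.03% (6.5%). A *Chrm2* UMI was found in 36.4% (62.2%) of untreated dilator muscle nuclei. The sphincter 1 share was 20.0% (44.3%) and the sphincter 2 share 14% (34.9%), against a background of 0.869% (2.66%) in iris PE. Median depths before thinning were 3410 UMIs in dilator muscle, 3332 in sphincter 1, 3460.5 in sphincter 2, 3173 in iris PE and 2691 in stroma 1.

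In sphincter 1 the Gi-coupled and the Gq-coupled receptor occurred in the same nuclei, as *Chrm3* was found in almost every nucleus. Before thinning, *Chrm3* was found in 99.2% of untreated sphincter 1 nuclei with a *Chrm2* UMI and 99.0% of those without. Without thinning, 239 of 544 untreated sphincter 1 nuclei held UMIs of both *Chrm2* and *Chrm3*, 2 held *Chrm2* alone, 300 held *Chrm3* alone and 3 held neither. In sphincter 2, 80 of 352 nuclei held both, 43 held *Chrm2* alone and 142 *Chrm3* alone. The share with *Chrm3* was 65.0% among sphincter 2 nuclei with a *Chrm2* UMI and 62.0% among those without. In dilator muscle 2513 of 4357 nuclei held *Chrm2* alone and 195 held both. Scrublet called 7.52% of sphincter 1 nuclei, 2.81% of sphincter 2 nuclei and 0.646% of dilator muscle nuclei doublets over all libraries, and with these left out both receptors were still found in 43.2% of untreated sphincter 1 nuclei, against 43.9% with them.

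**Figure D2:**
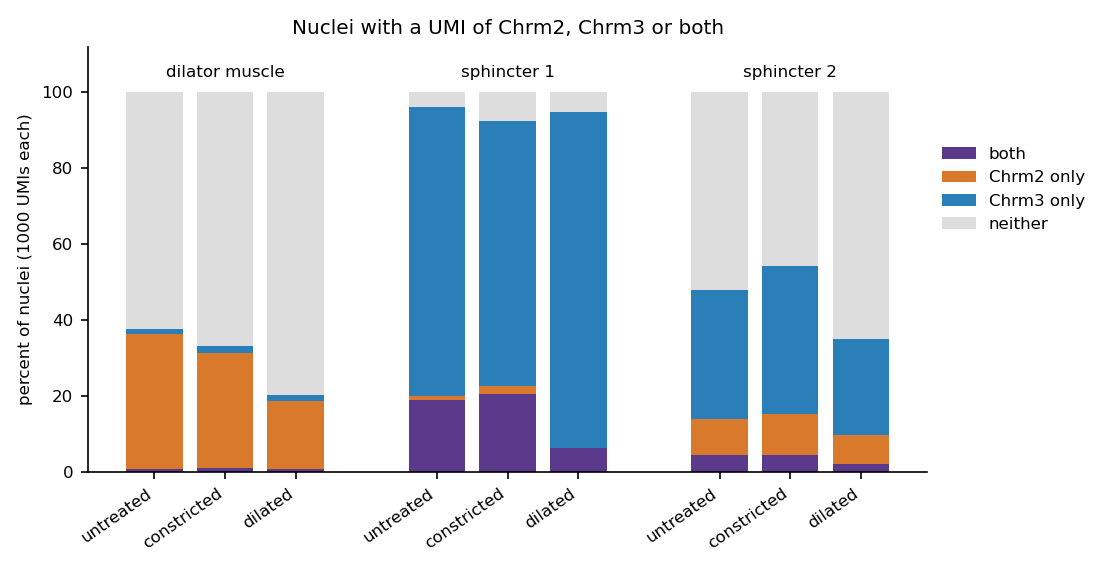
Percent of nuclei with a UMI of *Chrm2* alone, *Chrm3* alone, both or neither (stacked bars) after thinning each nucleus to 1000 UMIs, for 3 muscle types and 3 conditions, with the libraries of a condition pooled. The part with both receptors in sphincter 1 is 18.9% in untreated and 6.09% in dilated irises.

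With condition as the only term in the model, *Chrm2* was lower after dilation in 2 muscle types, and no other member passed the test. In sphincter 1 *Chrm2* was 6.40-fold lower in dilated than in untreated irises, and in dilator muscle 2.19-fold lower. For each comparison the UMIs of a cell type were added up within a library and fitted with edgeR (quasi-likelihood F test), with Benjamini-Hochberg adjustment over all genes of a cell type, and a gene was called changed at an adjusted p under 0.05 with a log2 fold change beyond 0.6 in either direction. After the filter on low counts, 20 pairs of member and cell type could be tested: *Chrm2* in 9 types, *Chrm3* in 6, *Chrm1* in 4 and *Chrm4* in dilator muscle. Of these, 2 were called in dilated against untreated irises, both lower, when 3.34% of all 85092 tests of a gene in a cell type were called.

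In sphincter 1 *Chrm2* stood at 49.1 and 46.2 CPM in the dilated libraries, against 274 to 338 CPM in the untreated and 326, 466 and 209 CPM in the constricted libraries. The dilated libraries lay below all 6 others, on 18 and 20 UMIs. The log2 fold change against untreated was -2.68 (SE 0.32, edgeR adjusted p 4.3e-05), where 1.95% of the 7112 genes tested in sphincter 1 were called. The value ranged from -2.78 to -2.43 over 19 alternative settings and passed the test in each, and without the shared barcodes it was -2.65. Libraries with neighbouring library numbers gave -2.76 (dilated 1 against untreated 1) and -2.73 (dilated 2 against untreated 2 and 3).

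In dilator muscle *Chrm2* stood at 293 and 213 CPM in the dilated libraries, against 579 to 675 CPM in the untreated and 623, 538 and 325 CPM in the constricted libraries. Again the dilated libraries were the lowest, with constricted 3 closest to them. The log2 fold change against untreated was -1.13 (SE 0.22, edgeR adjusted p 0.0046), in a cell type where 13.3% of 15395 genes were called. Without the library dilated 2 it was -0.99 and no longer passed (adjusted p 0.051). With the long gene share in the model it was -0.75 (adjusted p 0.011). Without the shared barcodes it was -1.14 and passed, and the values within neighbouring library numbers were -1.21 and -1.51.

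In sphincter 2 *Chrm2* was at 159 and 78.4 CPM in the dilated libraries and at 181 to 211 CPM in the untreated ones. Both dilated libraries lay below the untreated libraries, but the change did not pass the test (log2 fold change -0.63, SE 0.31, edgeR adjusted p 0.37; -1.14 without dilated 1 and -0.25 without dilated 2), where 2.87% of 6691 genes were called. It did pass with the library series, the run of neighbouring library numbers, as a term in the model (-0.86, adjusted p 0.036), and without the shared barcodes it was -0.73 and did not pass (adjusted p 0.26). In endothelial cells the libraries spread from 69.6 to 155 CPM when untreated and stood at 447 and 124 CPM when dilated, and this change did not pass either (log2 fold change 1.32, edgeR adjusted p 0.74). In leukocytes *Chrm2* went from 33.1, 117 and 30.9 CPM to 13.1 and 0 CPM, on 37 UMIs when untreated and 2 when dilated, and did not pass (edgeR adjusted p 0.43).

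*Chrm3* was not lower in the dilated sphincter 1. Its level there was 5203 and 3971 CPM when dilated, against 3787 to 4086 CPM when untreated and 4601, 3420 and 2415 CPM when constricted, so the conditions overlapped. The log2 fold change in dilated against untreated irises was 0.25 (SE 0.22, edgeR adjusted p 0.81), with an approximate 95% interval from -0.18 to 0.67. In sphincter 2 *Chrm3* was at 578 and 351 CPM when dilated and at 838, 787 and 705 CPM when constricted, and its change against untreated did not pass (log2 fold change -0.45, SE 0.22, edgeR adjusted p 0.37). *Chrm4* in dilator muscle, at 1.28 and 3.21 CPM when dilated, did not pass either (log2 fold change -0.74, edgeR adjusted p 0.42), but it did with the long gene share in the model (-1.64, adjusted p 0.031).

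Within each library the ratio of *Chrm3* to *Chrm2* UMIs in sphincter 1 gave the same separation without any scaling between libraries. The ratio was 12.3, 13.8 and 11.9 in the untreated libraries, 14.1, 7.34 and 11.6 in the constricted libraries, and 106 and 86.05 in the dilated libraries. In sphincter 2 the ratio was 2.81 to 4.38 when untreated, 2.22 to 5.22 when constricted, and 3.63 and 4.48 when dilated, and the conditions overlapped. In dilator muscle, where *Chrm3* was near background, it was 0.0311 to 0.0398 when untreated and 0.0870 and 0.0836 when dilated. The constricted libraries gave 0.0600, 0.0692 and 0.0569 there, also above every untreated library.

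**Figure D3:**
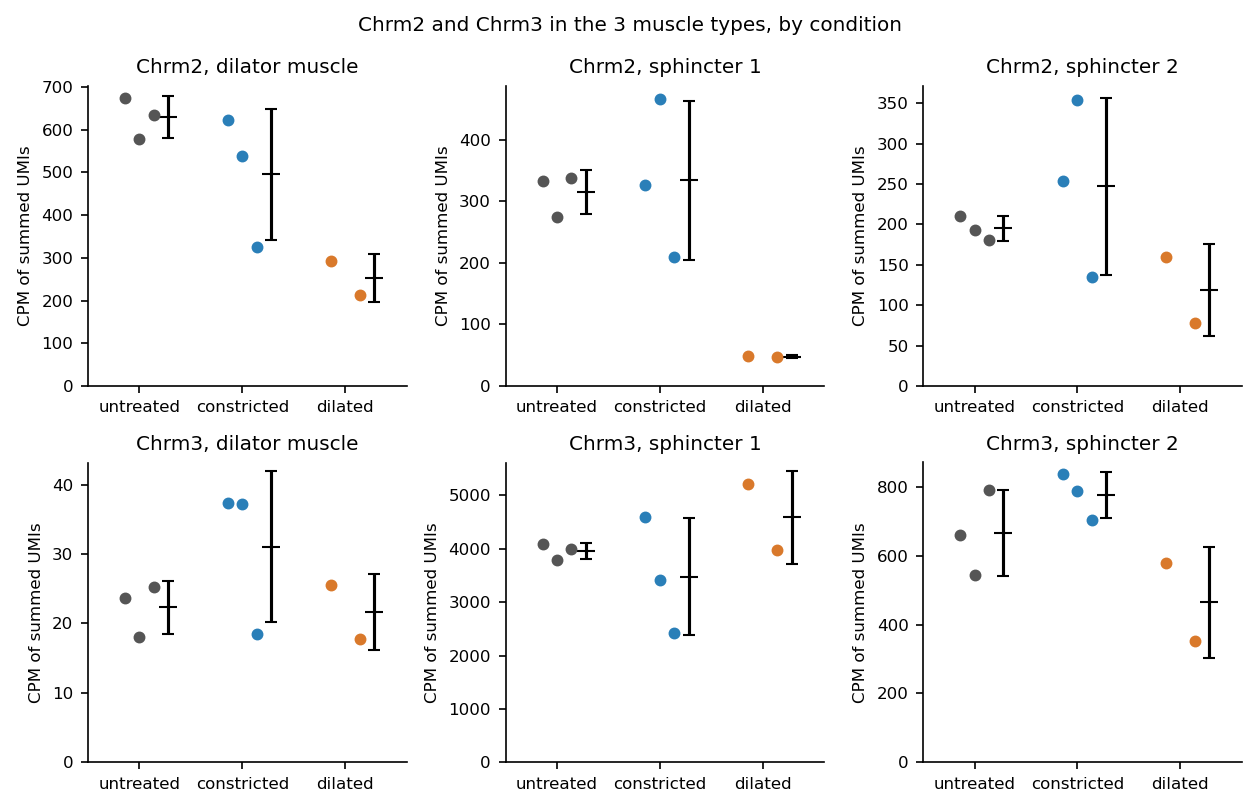
*Chrm2* and *Chrm3* in dilator muscle, sphincter 1 and sphincter 2, with CPM on the vertical axis 1 point per library by condition, and bars for the mean and SD. In sphincter 1 the 2 dilated libraries sit at 49.1 and 46.2 CPM of *Chrm2*, below all other libraries, while *Chrm3* overlaps between conditions.

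Shares of nuclei moved with the levels. After thinning to 1000 UMIs, a *Chrm2* UMI was found in 6.09% of dilated sphincter 1 nuclei, against 20.0% of untreated and 22.6% of constricted nuclei (13.6%, 44.3% and 47.4% before thinning). In dilator muscle the share was 18.5% in dilated, 36.4% in untreated and 31.4% in constricted irises. Of 235 dilated sphincter 1 nuclei, 32 held both receptors before thinning, none held *Chrm2* alone and 201 held *Chrm3* alone. *Chrm3* was found in 94.8% of the dilated sphincter 1 nuclei after thinning.

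Some of the genes that mark cell types moved beside *Chrm2*, and their part in the result was not tested. In sphincter 1 the summed level of its own 4 markers (*Ttn*, *Ckm*, *Ctnna3* and *Nptx2*) was 2920 to 3704 CPM in the untreated, 3545 to 6028 CPM in the constricted and 1124 to 1322 CPM in the dilated libraries. *Syt1*, *Synpo2* and *Ryr3*, which mark both sphincter types, summed there to 7478 to 9150 CPM when untreated. When constricted they summed to 6111 to 10398 CPM and when dilated to 7138 to 8042 CPM. The 3 markers of dilator muscle (*Nos1*, *Unc13c* and *Cit*) in sphincter 1 summed to 317 to 448 CPM when untreated and 346 to 597 CPM when dilated. The CBE markers in sphincter 1 summed to 86.0 to 183 CPM when untreated, 96.8 to 181 CPM when constricted and 240 to 251 CPM when dilated, and the endothelial markers to 9.57 to 32.3, 6.05 to 23.0 and 43.8 to 49.1 CPM. In dilator muscle its own 3 markers summed to 2772 to 3330 CPM when untreated and 1452 to 1536 CPM when dilated, with *Unc13c* at 2226 and 683 CPM on average. The 3 smooth muscle markers (*Acta2*, *Myh11* and *Mylk*) in dilator muscle summed to 10478 to 10933 CPM when untreated, 9088 to 10724 CPM when constricted and 6815 to 7749 CPM when dilated. In sphincter 1 the same markers summed to 6644 to 7935, 7233 to 7548 and 6251 to 7142 CPM.

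Constriction, which set the pilocarpine libraries against the untreated ones, gave no call among the 20 tests of members with edgeR, and 1 of them (*Chrm1* in stroma 2, log2 fold change -1.30) had an unadjusted p under 0.05. DESeq2 also called none. Over all cell types 0.0118% of the tests were called, with 0.0065% in dilator muscle, 0% in sphincter 1 and 0.0897% in sphincter 2. The log2 fold change of *Chrm2* was -0.33 in dilator muscle, 0.07 in sphincter 1 and 0.34 in sphincter 2. That of *Chrm3* was -0.17 in sphincter 1 and 0.25 in sphincter 2. For *Chrm3* in sphincter 1 the approximate 95% interval ran from -0.55 to 0.22 on the log2 scale, and for *Chrm2* there from -0.38 to 0.52. Such intervals give a rough range and do not strictly bound what could have been missed.

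Dilated against constricted irises differ in drug and in lighting, and again 2 of 20 tests were called, both *Chrm2* and both lower in dilated irises, when 2.65% of all tests were. The log2 fold change was -2.75 in sphincter 1 (edgeR adjusted p 2.6e-05, 3.7% of genes called) and -0.80 in dilator muscle (edgeR adjusted p 0.034, 10.5% of genes called). In sphincter 2 *Chrm2* (-0.97, edgeR adjusted p 0.10) and *Chrm3* (-0.70, edgeR adjusted p 0.099) did not pass, where 2.45% of genes were called. With the long gene share in the model the value in dilator muscle was -0.38 and did not pass (adjusted p 0.20). Since the untreated libraries serve as controls in both comparisons above, the values of those comparisons are side by side and not independent.

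**Figure D4:**
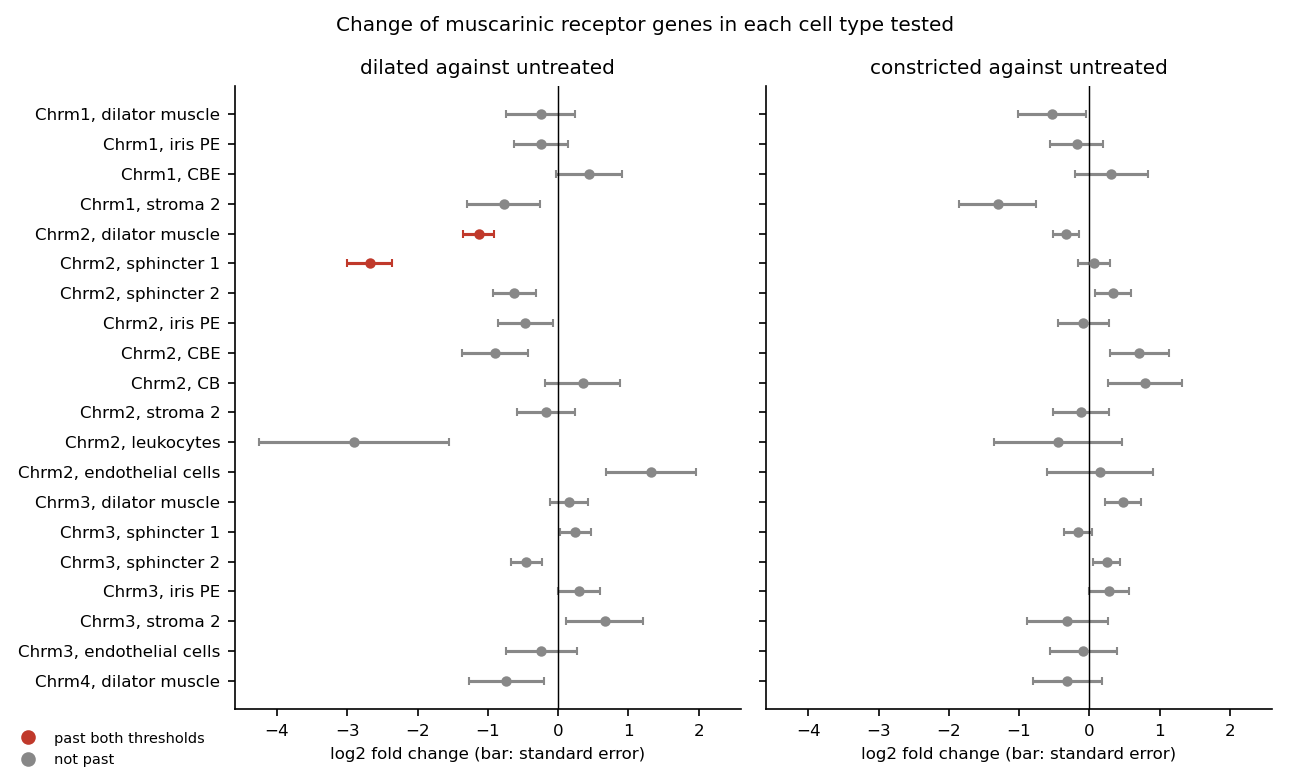
Log2 fold change of each member in each cell type tested, for dilated and constricted against untreated irises in separate panels, with bars of 1 standard error on each side. The points past both thresholds are *Chrm2* in sphincter 1 (-2.68) and in dilator muscle (-1.13) after dilation, and none after constriction.

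The fall of *Chrm2* after dilation was larger in sphincter 1 than in dilator muscle. When both types were fitted together, the log2 fold change in dilator muscle exceeded that in sphincter 1 by 1.54 (SE 0.29, edgeR adjusted p 3.4e-05), and it stayed between 1.40 and 1.69 in 13 alternatives. By this test 6.71% of 13060 genes differed. Against sphincter 2 the difference was -0.51 (SE 0.25, edgeR adjusted p 0.45) and did not pass, where 2.1% of 12671 genes did, and it was -0.16 without the library dilated 1 and -0.75 without dilated 2. In simulated counts with a true difference of 2-fold this test called 8 of 100 genes for dilator muscle against sphincter 2, and at 4-fold 97 of 100. The simulation changed only these 100 genes, with 1 spread (dispersion 0.03) for all genes, whereas 266 genes passed in the data. How often a difference of the size seen for *Chrm2* would be missed therefore cannot be told from it.

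The rest of the cholinergic pathway was followed in the 3 muscle types by fixed lists, which were chosen with earlier results of these data known. The share of all genes called in dilated against untreated irises, 13.3% in dilator muscle, 1.95% in sphincter 1 and 2.87% in sphincter 2, is the background for every count of list members below, and with so few members per list no count is read as a result about a list. In dilator muscle the nicotinic receptor subunits, which form acetylcholine-gated channels, had 7 of 15 measured members tested, of which 2 fell after dilation and none rose. *Chrna7* went from 98.2 to 117 CPM when untreated to 68.2 and 54.7 CPM when dilated (log2 fold change -0.66, edgeR adjusted p 0.016). *Chrnb3* went from 71.1 to 87.3 CPM to 38.6 and 33.5 CPM (-1.02, edgeR adjusted p 0.0015). In both genes the dilated libraries lay below all untreated libraries. Among genes for making, moving and breaking down acetylcholine, 1 of 3 tested fell in dilator muscle: *Prima1*, the membrane anchor of acetylcholinesterase, from 87.1 CPM to 25.6 and 40.7 CPM (-1.19, edgeR adjusted p 0.0088). Against untreated irises no member of these 2 lists was called in sphincter 1 or sphincter 2, where 1 or 2 members of each could be tested, and in dilated against constricted sphincter 2 *Prima1* was called lower (-1.20, edgeR adjusted p 0.049).

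The Gq branch is the one that CHRM3 couples to, but *Chrm3* was near background in dilator muscle. Which receptor acts on this branch there was not tested. In dilator muscle 13 members of the branch were tested, of which 2 rose after dilation and none fell, where 13.3% of all genes were called in either direction. These were the protein kinase C genes *Prkca* (from 84.8 to 107 CPM when untreated to 191 and 156 CPM when dilated, log2 fold change 1.05) and *Prkcb* (0.80, edgeR adjusted p 0.013). The most abundant member in each muscle was *Plcb4*, a phospholipase C, whose level was 3369 ± 368 CPM (SD, n = 3) for untreated dilator muscle. It reached 4402 ± 497 CPM in untreated sphincter 2 against 2820 ± 101 CPM for sphincter 1, and it was called in none of the 3. In sphincter 1 none of the 9 tested members of this branch was called, and in sphincter 2 none of 10.

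Of the Gi branch, downstream of *Chrm2*, 16 members were tested in dilator muscle, of which 1 rose and 2 fell, against the same 13.3%. *Kcnj3*, a subunit of the potassium channel opened by Gi, went from 167, 212 and 213 CPM when untreated to 73.3 and 80.8 CPM when dilated (log2 fold change -1.18, edgeR adjusted p 0.0016). *Gnaz*, a Gi-family alpha subunit, fell by 1.17 on the log2 scale, starting from an untreated range of 7.8 to 8.3 CPM. *Adcy8*, a calcium-stimulated adenylate cyclase, rose by 0.90. The most abundant member was *Gnao1*, at 670 ± 74.6 CPM in dilator muscle, which was not called. In sphincter 1 none of 11 was called, and *Kcnj3* there was at 187 to 228 CPM when untreated and 123 and 143 CPM when dilated (-0.59, edgeR adjusted p 0.37).

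Of the genes that shut receptors off (receptor kinases, arrestins and RGS proteins), *Rgs7* fell after dilation in sphincter 1 and rose in dilator muscle. This gene, which speeds the turning off of Gi-family subunits, stood in sphincter 1 at 199, 126 and 107 CPM when untreated and 40.9 and 27.7 CPM when dilated (log2 fold change -1.92, edgeR adjusted p 0.0054). In dilator muscle it was low, at 15, 5.1 and 3.8 CPM when untreated, and rose to 31.5 and 23.2 CPM (2.28, edgeR adjusted p 0.0028). *Rgs2* rose in dilator muscle from 0.4 to 1.9 CPM to 3.1 and 5.2 CPM (2.02, edgeR adjusted p 0.046), a low level in every library. In dilator muscle 2 of 10 tested members rose and none fell (13.3% of all genes called), and in sphincter 1 the 1 that fell was *Rgs7*, of 4 tested (1.95% of all genes called). Among alpha-1 adrenergic receptors, the targets of phenylephrine, *Adra1b* rose by 0.77 in dilator muscle, and *Adra1a*, the most abundant at 479 ± 25.8 CPM, was not called. The median log2 fold change of the 2 members tested there was 0.12, so the lack of a call does not show that *Adra1a* stayed level. No member of any of these lists was called in constricted against untreated irises in the 3 muscle types.

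Across the 10 cell types in untreated irises, the genes whose level followed *Chrm2* most closely were *Myh11* (Pearson r 0.91), the smooth muscle myosin heavy chain, *Dpp6* (0.90) and *Smtn* (0.90), among 11656 genes compared. For *Chrm3* they were *Rasgrp2* (0.94), *2700038G22Rik* (0.93) and *Mtx1* (0.92), and for *Chrm1* they were *Gm15155* (0.94), *Tcim* (0.87) and *Stk16* (0.87). The points are 10 cell types that share libraries, and *Chrm1* rested on 262 UMIs. These genes were picked as the highest of 11656, and how high such picks run by chance was not tested. Unlike *Chrm2*, *Myh11* was highest in sphincter 1 (2940 CPM) and *Dpp6* in sphincter 2 (185 CPM), whereas *Smtn* was highest in dilator muscle (504 CPM).

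Genes that overlap the members on the other strand were read as uncertain, since the strand used in counting is not given in the sources used here. *9330158H04Rik*, antisense to *Chrm2*, was at 16.4 CPM in untreated and 4.32 CPM in dilated dilator muscle (log2 fold change -1.68, edgeR adjusted p 0.0044), in the same direction as *Chrm2*. It was counted apart from *Chrm2*, with 226 UMIs against 9212 in untreated dilator muscle. Without the strand, whether some of its reads came from *Chrm2* transcripts cannot be told. *Gm26861*, antisense to *Chrm3*, was at 48.8 CPM in untreated and 47.7 CPM in dilated sphincter 1 and was not called.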

How the data were processed

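Single nucleus RNAseq (10x 3′ v3) of 8 libraries of mouse iris was aligned by the authors to mm10 pre-mRNA with Cell Ranger 3.1.0 and clustered with Seurat, and the authors deposited UMI counts per gene and nucleus with their cell types. Column sums differed from the deposited totals in 2707 nuclei, and the sums were used. Scrublet (scanpy 1.11.5) called 359 nuclei doublets (1.04%). These stayed in unless stated. The counts of each cell type were added up within a library and fitted over all 8 libraries with edgeR 4.0.16 (TMM, filterByExpr), with DESeq2 1.42.0 size factors and tests as alternatives. The labels do not say whether replicate libraries came from separate litters, so p-values cover the spread between these libraries. The paper states that the irises were processed in several batches, with the conditions spread over batches and sequencing runs. It does not say which library belonged to which batch, and the main fit held no batch term. Intervals cover 1.96 SE on each side, an approximation that is narrower than the F test would give. In tests on simulated data, the interaction test recovered, for dilator muscle against sphincter 1, 4 of 100 genes with a 2-fold difference and 99 of 100 with 4-fold. Here too only these 100 genes were changed, at 1 dispersion, whereas 876 genes passed in the data. The recovery in the data can therefore differ. The members and lists were chosen with earlier results of these data known. Named genes were the members, the 3 most alike in pattern and, in each list, the called genes and the most abundant. Leaving out shared barcodes, and adding the long gene share, were chosen after seeing the data. Levels between cell types were described without a test.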

Additional observations from a re-analysis of the deposited data

Results flagged for a closer look

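*Chrm2* fell more after dilation in sphincter 1 than in dilator muscle, and this difference between cell types was picked out because it was itself tested: the log2 fold change in dilator muscle exceeded that in sphincter 1 by 1.54 (SE 0.29, edgeR adjusted p 3.4e-05). In sphincter 1 *Chrm2* went from 333, 274 and 338 CPM when untreated to 49.1 and 46.2 CPM when dilated. In dilator muscle the untreated libraries had 675, 579 and 635 CPM and the dilated ones 293 and 213 CPM. No condition has more than 3 libraries, so no test for single outlying libraries was run.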

How the results depend on the processing

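Of 299 values under alternatives, 269 were classed as the same. Tests and shares in this class kept their direction and side of the threshold, or moved by less than the replicate spread. Counts of calls were classed by the size of their change, so 2 becoming 3 was classed as the same. Many of the 269 belong to tests that did not pass in the first place. Some alternatives only dropped the fold change limit and reused the fitted value. The number of member tests called in dilated against untreated irises was 1 to 2 when 1 library was left out, being 1 without dilated replicate 2, and it was 3 with the long gene share (*Chrm4* in dilator muscle added, -1.64) or the library series block (*Chrm2* in sphincter 2 added). Without dilated replicate 2 *Chrm2* in dilator muscle was at -0.99 (adjusted p 0.051; range -1.29 to -0.99). In dilated against constricted irises the number of calls was 4 with a replicate block, 1 with the long gene share, 1 with only the 2 conditions compared and 1 to 3 when 1 library was left out. Without a filter, constricted against untreated irises gave 1 call (*Chrm3* in leukocytes, whose UMIs sit mostly in 2 nuclei). *Chrm2* in sphincter 1 in constricted against untreated irises turned negative with the library series block (-0.30), with the long gene share (-0.043) and in part of the leave-one-out range (-0.22 to 0.33). *Chrm2* in sphincter 2 passed in dilated irises with the library series block (-0.86) and was -0.17 in constricted irises under it. *Chrm3* in sphincter 1, constricted, ranged from -0.39 to 0.036. None of these constriction values passed in the first place, and the cause of the shifts was not tested. The ratio of *Chrm2* in dilator muscle to sphincter 1 was 2.20 without shared barcodes, and the *Chrm3* ratio 4.80 to 5.57 when 1 library was left out, with sphincter 2 second without untreated replicate 2. Shares of nuclei depend on depth: both receptors in untreated sphincter 1 were found in 43.9% as deposited, 33.5% at 2000 UMIs and 43.2% without doublets, and in dilated sphincter 1 in 13.6% and 13.4% as deposited and without doublets. *Chrm2* in dilator muscle was found in 62.2%, 51.6% and 62.3% of untreated and 41.1%, 29.9% and 41.1% of dilated nuclei.

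With the replicate number as a replicate block, *Chrm2* in dilated against untreated irises was -1.26 in dilator muscle, -2.78 in sphincter 1 and -0.88 in sphincter 2, and in dilated against constricted irises *Chrm2* also passed in sphincter 2 and CBE. Deviations from the group means over 10115 genes in dilator muscle correlated between same-numbered libraries from -0.019 (constricted 2 and dilated 2) to 0.564, so the numbers were not taken to pair the libraries. All 8 pairs of different conditions within a library series correlated, at 0.159 to 0.564. Depth limits the low members: dilated sphincter 1 held 18 and 20 *Chrm2* UMIs per library, and *Chrm4* was tested in dilator muscle only.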

Other observations

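*Emcn*, an endothelial sialomucin of veins and capillaries, was found more often in endothelial nuclei with 3 or more *Chrm2* or *Chrm3* UMIs than in those without. It was 1 of 4 endothelial markers, and the others did not all follow it. Over all libraries 15 of the 273 endothelial nuclei held 3 or more *Chrm2* UMIs, and *Emcn* was found in 80% of them, against 33.5% of the 227 nuclei without a *Chrm2* UMI. *Cldn5*, a tight junction gene, was found in 66.7% of the former and 82.4% of the latter. For *Pecam1* these shares were 73.3% and 63.0%, and for *Cdh5* 53.3% and 45.8%. In CPM *Emcn* was at 1246 in the 15 against 420 in the 227. The other endothelial markers were lower in the 15: *Cldn5* at 303 against 1166, *Pecam1* at 242 against 629 and *Cdh5* at 121 against 317 CPM. *Abcc9*, a pericyte marker, was found in 33.3% of the 15 and 2.2% of the 227. Muscle genes were also higher in the 15 than in the 227: *Mylk* at 2505 against 794 CPM, *Myh11* at 532 against 120 CPM, *Unc13c* at 714 against 127 CPM and *Nos1* at 121 against 3.8 CPM. Scrublet called 4 of the 15 doublets, and their median depth was 3573 UMIs against 1823. In the 31 nuclei with 1 or 2 *Chrm2* UMIs, *Emcn* was found in 83.9%. There *Mylk* was at 467, *Myh11* at 68.7, *Unc13c* at 137 and *Nos1* at 27.5 CPM. For *Chrm3*, 66 nuclei held 3 or more UMIs, and *Emcn* was found in 65.2% of them against 26.4% of the 125 without one. The median depths were 2345.5 and 1659 UMIs. *Cldn5* was found in 74.2% and 77.6% of these nuclei, *Pecam1* in 71.2% and 55.2% and *Cdh5* in 48.5% and 49.6%. In these 66 nuclei *Mylk*, *Myh11*, *Unc13c* and *Nos1* were at 656, 113, 197 and 4.9 CPM. The 125 nuclei had 1075, 143, 200 and 35.7 CPM of the same genes. Other muscle genes went the other way: *Syt1*, *Ttn* and *Acta2* were at 148, 24.7 and 83.9 CPM in the 66 nuclei. In the 125 nuclei they were at 21.4, 7.1 and 53.6 CPM. *Syt1* was found in 6.1% of the 66 and 4.8% of the 125. Scrublet called 8 of the 66 and 6 of the 125 doublets. The shares were not thinned to 1 depth, and the part of depth, doublets and muscle RNA in them was not tested. Conditions were pooled, and 63 of the 129 endothelial *Chrm2* UMIs came from the single library dilated 1.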
